A study of Rattus norvegicus with 6 samples.

Results

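The small leucine-rich proteoglycans are secreted matrix proteins built from leucine-rich repeats, and 10 of their genes were followed here among the 37203 genes of the deposited count table. The members were taken by symbol, whatever their level: Dcn (decorin), Bgn (biglycan) and Aspn (asporin) of class I, Fmod (fibromodulin), Lum (lumican), Prelp, Kera (keratocan) and Omd (osteomodulin) of class II, Ogn (osteoglycin) of class III and Chad (chondroadherin) of class IV. All 10 were found, and 8 of them passed the filter on low counts, among 16066 tested genes. The RNA was from the alveolar tissue of rats, the part of the jaw that holds the teeth, in a model of orthodontic tooth movement with or without corticision, a surgical incision of the cortical bone. There were 3 case libraries (numbers 5, 6 and 9), whose source field names tooth movement without corticision, and 3 control libraries (numbers 5, 6 and 10), whose source field names movement with corticision. Title and source field therefore conflict, which the sources used here do not settle. The words case and control follow the titles, and differences are given as case minus control. All 6 libraries share the moved tooth. Strain, age, sex, the time after surgery and the number of animals behind a library were not given in the sources used here, so p-values here reflect no more than sample-to-sample spread, part or all of which may be technical.

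These proteoglycans coat collagen fibrils in bone, tendon, skin, cornea and the periodontal ligament, the fibrous sling between root and bone. By binding at the fibril surface they limit how thick fibrils grow and how they are spaced, and several of them also bind transforming growth factor beta. Decorin and biglycan carry chondroitin or dermatan sulfate chains, while lumican, fibromodulin, keratocan and osteomodulin can carry keratan sulfate. Asporin is also known as periodontal ligament-associated protein, and osteomodulin was named osteoadherin for its place in mineralized bone.

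In the RefSeq annotation of rat assembly GRCr8 the members fall into groups of neighbours. Dcn, Lum and Kera lie in a row on chromosome 7, Prelp is next to Fmod on chromosome 13, and Ogn, Omd and Aspn lie in a row on chromosome 17. Bgn is on chromosome X and Chad on chromosome 10. The genes of the chromosome 17 row all lie within the span of Cenpp, a centromere protein gene, and Chad lies within the span of Acsf2, an acyl-CoA synthetase gene. Thus 4 of the 10 members overlap another protein-coding gene. Whether the counting used strand is not given in the sources used here, and without it reads from a stretch that 2 genes share cannot be assigned. The spans alone do not show whether exons overlap.

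RefSeq promoter entries were matched for 7 of the 10 members. Libraries of the same group were up to 1.72-fold apart in Lum counts and 1.92-fold in Fmod, but 264-fold in Aspn and 162-fold in Ogn. Shown here are the 250 bases before the start for Lum, Fmod, Aspn and Ogn, in that order. They are chr7:34245456-34245705 (plus strand), chr13:48045317-48045566 (plus), chr17:15310470-15310719 (minus) and chr17:15258996-15259245 (minus) of GRCr8, written 5′ to 3′ on the strand of the gene. The start is that of the promoter table, which for Aspn and Ogn lies inside the outermost annotated span of the gene. Capitals mark matches, on either strand, to 5 motifs. They are the TATA box (TATAAA), the CCAAT box, the GC box (GGGCGG), the core of the Runx motif (TGTGGT) and the AP-1 motif (TGANTCA).
Lum: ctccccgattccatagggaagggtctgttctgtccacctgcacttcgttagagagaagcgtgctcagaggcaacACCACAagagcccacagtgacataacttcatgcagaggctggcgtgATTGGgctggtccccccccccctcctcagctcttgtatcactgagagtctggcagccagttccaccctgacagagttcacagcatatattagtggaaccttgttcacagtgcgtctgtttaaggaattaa
Fmod: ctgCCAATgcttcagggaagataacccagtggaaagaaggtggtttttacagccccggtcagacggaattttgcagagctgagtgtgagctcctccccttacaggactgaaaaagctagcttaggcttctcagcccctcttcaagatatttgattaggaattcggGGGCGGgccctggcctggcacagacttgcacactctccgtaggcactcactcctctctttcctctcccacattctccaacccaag
Aspn: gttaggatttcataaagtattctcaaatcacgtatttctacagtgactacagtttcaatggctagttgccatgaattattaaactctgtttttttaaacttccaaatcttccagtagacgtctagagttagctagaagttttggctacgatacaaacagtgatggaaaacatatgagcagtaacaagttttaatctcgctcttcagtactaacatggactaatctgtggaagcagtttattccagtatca
Ogn: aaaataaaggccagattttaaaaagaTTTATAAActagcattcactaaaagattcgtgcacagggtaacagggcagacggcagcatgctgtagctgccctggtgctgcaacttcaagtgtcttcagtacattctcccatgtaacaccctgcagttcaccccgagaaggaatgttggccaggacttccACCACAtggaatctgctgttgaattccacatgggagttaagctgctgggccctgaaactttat

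The Lum window held 1 CCAAT and 1 Runx core match, and the Fmod window 1 CCAAT and 1 GC box match. In the Ogn window there were 2 TATAAA matches, on opposite strands and overlapping each other, and 1 Runx core match. None of the 5 motifs occurred in the Aspn window. Among 33469 RefSeq windows of the same length, 12.9% held TATAAA, 34.0% CCAAT, 30.5% the GC box, 14.5% the Runx core and 6.34% the AP-1 motif. These matches describe letters only.

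Library totals ran from 11745453 to 14433740 counts in case and from 10886303 to 13727508 in control. Levels are given as CPM, counts divided by a library size that was scaled by the trimmed mean of M-values (TMM). They compare libraries for 1 gene, not genes with each other, since they are not per length. Bone markers (Runx2, Sp7 and Bglap) and the ligament gene Postn were present in every library. The tendon and ligament genes Tnmd (8 to 28 counts) and Scx (23 to 52 counts) were low throughout. Markers of other tissues differed between libraries. The summed level of the tooth-forming cell markers was 460 CPM in case 5 and 89.8 CPM in control 5, against 0.640 to 7.79 CPM in the other 4 libraries, and that of the oral epithelium markers was 3591 CPM in control 5 against 19.5 to 49.7 CPM elsewhere. Both libraries numbered 5 thus stand apart in these markers, and results are given with and without them. The remaining libraries were not alike in all markers either. Summed skeletal muscle markers were at 127, 387 and 1365 CPM in case 5, 6 and 9, and at 9.80, 1115 and 1127 CPM in control 5, 6 and 10. Summed erythroid markers were at 1840 CPM in case 6 against 7364 to 22105 CPM elsewhere.

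The 10 members together took 0.463%, 0.369% and 0.398% of the counts in case 5, 6 and 9, against 0.377%, 0.448% and 0.600% in control 5, 6 and 10. The widest 95% Wilson interval was 0.596 to 0.605%, in control 10. It covers counting error only. Control 10 was the highest library and case 6 the lowest, and the groups overlapped, with control 5 below case 9 and control 6 below case 5. For every 100 counts of the type I collagen genes Col1a1 and Col1a2 there were 3.93, 6.22 and 7.62 member counts in case and 5.43, 5.14 and 6.49 in control, again with overlap.

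**Figure D1:**
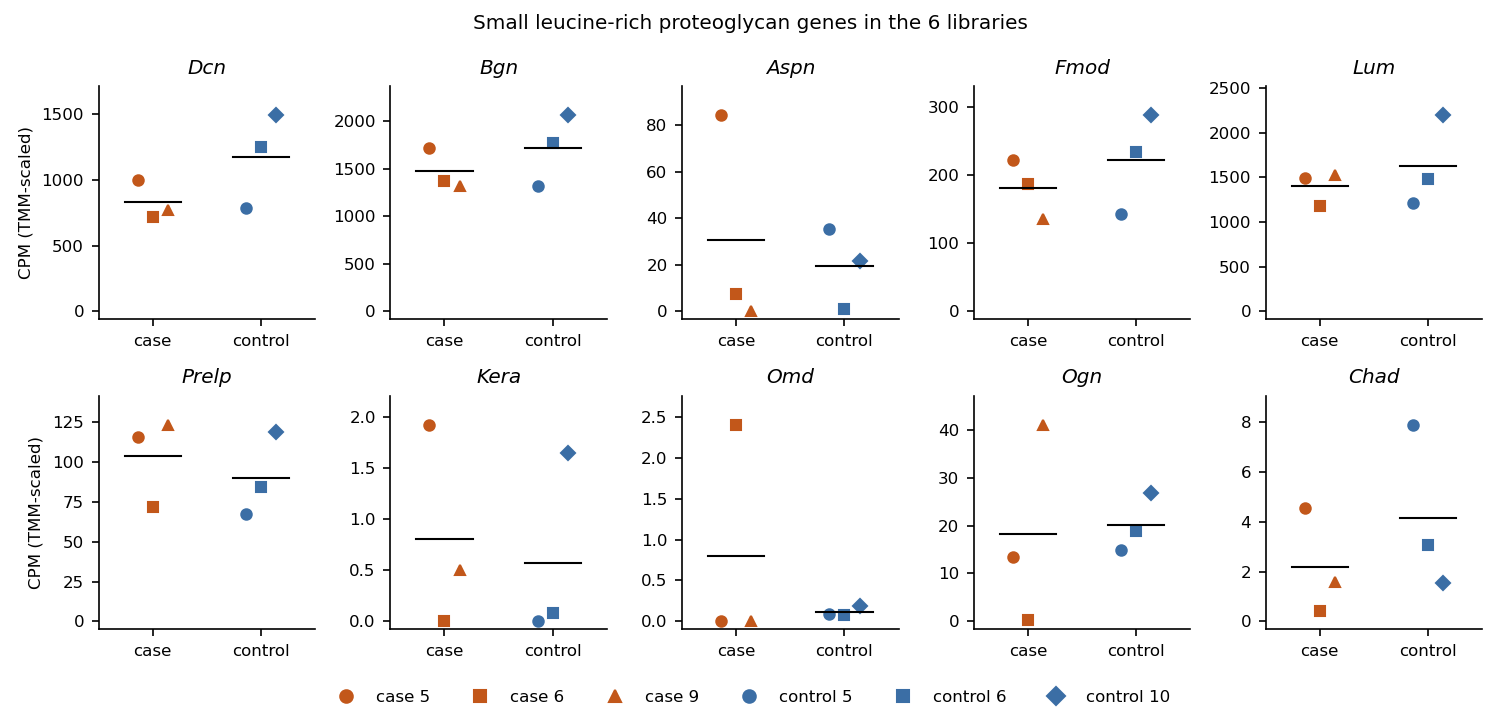
Level of each of the 10 genes (CPM, TMM-scaled, linear axes that differ between panels) in the 3 case and 3 control libraries; symbols mark the library and black lines the group mean. In Dcn the case libraries lie between 719.8 and 999 CPM and 2 of the 3 control libraries lie above them, while Aspn, Ogn and Omd differ most between libraries of the same group.

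Decorin, which binds collagen and transforming growth factor beta, had the lowest unadjusted p of the members. Dcn was at 999, 719.8 and 776 CPM in case 5, 6 and 9, against 785, 1254 and 1491 CPM in control 5, 6 and 10. Control 6 and 10 lay above every case library, and control 5 lay among them. The case mean was 831 ± 148 CPM and the control mean 1177 ± 359 CPM (SD, n = 3 libraries per group, as for every ± value). The log2 fold change was -0.50 (SE 0.28), with an unadjusted p of 0.114 and a Benjamini-Hochberg adjusted p of 0.999 in edgeR's quasi-likelihood test, so it did not pass. It was -0.26 without control 10 and -0.72 without control 5. In bulk tissue, fewer cells of a type and less RNA per cell cannot be told apart.

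Biglycan, the nearest relative of decorin and the member on the X chromosome, had a similar order of libraries. Bgn was at 1724, 1377 and 1322 CPM in case and 1318, 1769 and 2064 CPM in control. Control 5 was the lowest library of all by a narrow margin and control 10 the highest. The log2 fold change was -0.22 (SE 0.24, unadjusted p 0.395 in edgeR), but -0.033 without control 10 and -0.38 without control 5.

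Asporin, which inhibits mineralization by ligament cells in mice, was the least steady member. Aspn had 1054, 110 and 4 counts in case 5, 6 and 9, against 407, 14 and 239 counts in control 5, 6 and 10. On the CPM scale Aspn was at 84.2, 7.32 and 0.336 in the case libraries and 35.6, 1.10 and 21.8 in the control libraries. The highest and the lowest case library were 264-fold apart in counts, and both libraries numbered 5 were the highest of their group. The case mean was 30.6 ± 46.5 CPM and the control mean 19.5 ± 17.4 CPM, and the log2 fold change of 0.65 had an SE of 1.52. Its direction turned without case 5, to -2.29.

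Fibromodulin and lumican compete for a binding region on type I collagen, and fibromodulin also steers collagen cross-linking in mouse tendon. Fmod was at 222, 187 and 135 CPM in case and 143, 233 and 287 CPM in control. As in Dcn and Bgn, control 6 and 10 were above all case libraries, whereas control 5 was next to the lowest. The log2 fold change was -0.29 (SE 0.29, unadjusted p 0.355 in edgeR). It was -0.021 without control 10, -0.11 without case 9, -0.43 without case 5 and -0.52 without control 5.

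Lum was at 1496, 1177 and 1529 CPM in case and 1219.8, 1480.3 and 2195 CPM in control. Only control 10 stood outside the range of the case libraries. The log2 fold change of -0.22 (SE 0.27) became 0.087 without control 10.

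Prelp, which encodes a matrix protein that binds heparan sulfate and collagen, had a higher mean in case and varied less than Aspn, Ogn and Chad. It was at 116, 71.9 and 123 CPM in case and 67.1, 84.3 and 119 CPM in control. The groups overlapped throughout, and the log2 fold change was 0.20 (SE 0.27, unadjusted p 0.485 in edgeR). It ran from 0.031 without control 5 to 0.49 without control 10.

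Keratocan, best known from the cornea, had few reads. Kera showed 24, 0 and 6 counts in case, against 0, 1 and 18 in control, below the filter for the test. Omd, likewise untested, showed 0, 36 and 0 counts in case, against 1, 1 and 2 in control. Case 6 alone had more than a trace of this bone protein's transcript. By counting error alone, a 0 leaves room for 3 counts, which is 0.2 to 0.274 CPM depending on the library. Such a bound is not firm in this table. Hprt1, a widely expressed gene, is listed with 0, 118 and 71 counts in the case libraries and 0, 0 and 1 in the controls.

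Osteoglycin, also called mimecan, is found in bone and in vessel walls. Ogn had 169, 3 and 487 counts in case, against 170, 240 and 294 in control. Case 6 was near 0 and case 9 the highest library, so that the case libraries spanned 0.200 to 40.9 CPM, while the control libraries stayed between 14.9 and 26.9 CPM. The case mean was 18.2 ± 20.8 CPM and the control mean 20.2 ± 6.10 CPM. The log2 fold change of -0.16 (SE 1.12) became 0.43 without case 6, 0.14 without control 10 and 0.045 without case 5.

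Chondroadherin, a cartilage protein that binds integrins, was low, at 57, 6 and 19 counts in case, against 90, 39 and 17 in control. On the CPM scale Chad was at 4.55, 0.399 and 1.60 in case and 7.88, 3.07 and 1.55 in control, highest in the library numbered 5 of each group. The log2 fold change was -0.94 (SE 0.88, unadjusted p 0.317 in edgeR), but -2.05 without case 5 and -0.095 without control 5. The summed cartilage markers were at 109, 35.8 and 41.9 CPM in case and 215, 63.3 and 49.3 CPM in control. Of 8 cartilage markers 5 were tested, 4 of them with a negative fold change. Among the defining cartilage markers, the proteoglycan Acan had 87 to 629 counts in case and 299 to 414 in control, and neither it nor Sox9 or Col2a1 was at 0 in any library. In the summed cartilage markers, as in Chad, control 5 was highest, case 5 next and case 6 lowest. By contrast, Acan alone was highest in case 5 and lowest in case 9, and the part of cartilage in the Chad values was not tested.

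Across the members 0 of 8 tested genes passed the adjusted threshold of 0.05, as did 0% of all tested genes. DESeq2 called 0 members as well. At an unadjusted p under 0.05 there were 0 of 8 members, where 4.15% of all tested genes passed, 2.27% lower and 1.88% higher in case. The groups lay apart in 0 of the 10 members, against 8.47% of all tested genes, 4.42% with case lower and 4.05% with case higher. Of the 8 tested members 6 had a fold change under 0, against 53.7% of all tested genes, and its median was -0.22 against -0.024 over all tested genes. Without control 10 it was negative in 4 of 8 members, and the median was 0.033.

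**Figure D2:**
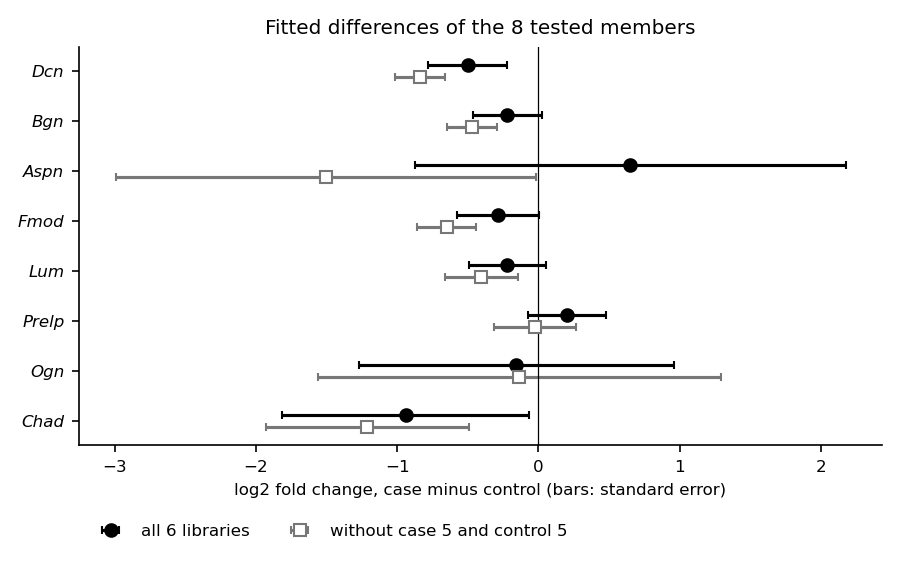
Fitted log2 fold change (case minus control, edgeR) of the 8 tested members with its standard error, from all 6 libraries (filled) and without case 5 and control 5 (open). Dcn lies at -0.50 with all libraries and at -0.84 without that pair, and the bars of Aspn, Ogn and Chad are the widest.

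Leaving out both libraries numbered 5 left case 6 and 9 against control 6 and 10. In that fit all 8 tested members were on the negative side, the median being -0.56, where the median over all 16298 tested genes was 0.0099. The shift was not limited to the members, since 13 of 14 fibrillar and fibril-associated collagens were also negative in this fit, with a median of -0.63. Dcn had a log2 fold change of -0.84 (SE 0.18, unadjusted p 0.00337), Fmod one of -0.65 (SE 0.21, unadjusted p 0.0222) and Bgn one of -0.47 (SE 0.18, unadjusted p 0.0404) in edgeR's test. Lower in case at an unadjusted p under 0.05 were thus 3 of 8 members, where 7.0% of all tested genes were, and 14.1% passed in either direction. The adjusted p was 0.193 for Dcn, 0.284 for Fmod and 0.337 for Bgn, and 0 genes passed over the table. The summed erythroid markers were lower in the case libraries of this fit, at 1840 and 7364 CPM, than in the control libraries, at 22105 and 12678 CPM. The fibroblast and ligament markers were at 3691 and 3769 CPM in case and 4147 and 5380 CPM in control. The osteoblast and osteocyte markers were at 10276 and 10988 CPM in case and 13424 and 11827 CPM in control. Endothelium markers were also lower, at 317 and 294 CPM in case and 393 and 448 CPM in control. Leukocyte and skeletal muscle markers overlapped between the groups of this fit. Over all 6 libraries 9 of 11 tested fibroblast and ligament markers and 8 of 8 tested erythroid markers had a fold change under 0, and none of Postn, Tnmd, Scx and Alas2 was at 0 in any library. The part of these cells in the result was not tested.

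The balance of biglycan to decorin was taken within each library, so that it does not depend on how libraries are scaled. There were 1.73, 1.91 and 1.70 Bgn counts for each Dcn count in case 5, 6 and 9, against 1.68, 1.41 and 1.38 in control 5, 6 and 10. Every case library was above every control library, though case 9 and control 5 nearly met. The mean log2 ratio was 0.83 ± 0.091 in case and 0.57 ± 0.15 in control, a difference of 0.26. The two-sided exact permutation p was 0.1, the smallest that 3 libraries against 3 allow, and 0.2 after adjustment over the 2 ratios computed. With each library left out in turn the difference stayed between 0.21 and 0.35.

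The ratio of Lum to Fmod counts showed no such order. It was 6.75, 6.28 and 11.3 in case and 8.52, 6.35 and 7.65 in control, with case 9 far above the rest. The mean log2 ratio was 2.97 ± 0.46 in case and 2.90 ± 0.21 in control, and the exact permutation p was 0.9.

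**Figure D3:**
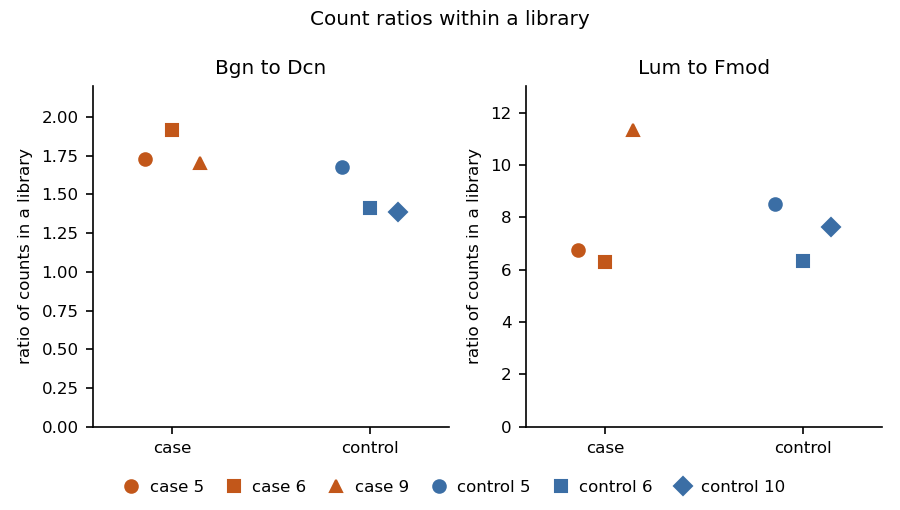
Ratio of Bgn to Dcn counts (left) and of Lum to Fmod counts (right) in each library, case libraries at the left of each panel; axes start at 0. The 3 case libraries lie at 1.70 to 1.91 Bgn counts per Dcn count and the 3 control libraries at 1.38 to 1.68, while the Lum to Fmod ratios overlap.

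Decorin, biglycan, fibromodulin and lumican had like patterns over the libraries. Over the 6 libraries, which share their scaling, Pearson's r of log2 CPM was 0.96 for Dcn with Bgn, 0.95 for Bgn with Fmod, 0.87 for Dcn with Fmod and 0.83 for Dcn with Lum. Among the 6 pairs of these 4 genes it ran from 0.65 to 0.96, against a median of 0.34 over all 28 pairs of tested members. Lum had a higher r with Prelp (0.76) than with Fmod (0.65), and the 4 genes were picked out after these values were seen. The neighbours Prelp and Fmod had an r of 0.29, and the neighbours Ogn and Aspn one of -0.15. All these coefficients describe 6 points only.

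**Figure D4:**
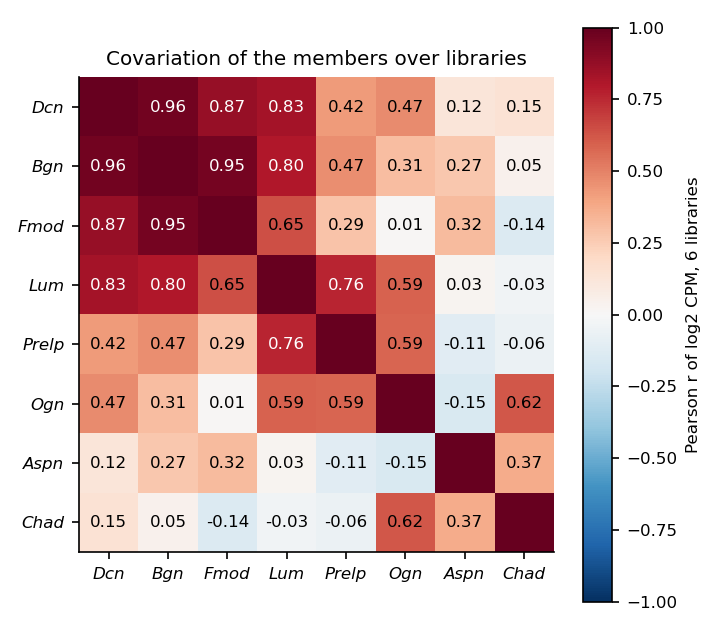
Pearson's r of log2 CPM over the 6 libraries for each pair of the 8 tested members. Dcn, Bgn, Fmod and Lum have r of 0.65 to 0.96 with each other and Lum has 0.76 with Prelp, while Aspn and Chad stay between -0.15 and 0.37 with the other members, apart from 0.62 for Chad with Ogn.

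The genes most like each member over the 6 libraries were sought among 10770 tested genes averaging 5 CPM or more. The highest r picked from so many genes over 6 points is large by the picking alone, and shared regulation was not tested. Dcn was nearest to Fap (r = 0.98) and Srprb (0.98), Bgn to Loxl3 (0.99) and Ikbip (0.99), and Fmod to B3gnt9 (0.997) and Fkbp10 (0.99). Lum was nearest to Stk3 (0.98) and Trpv4 (0.98), and Prelp to Tm9sf2 (0.99) and Ttc37 (0.96). Aspn was nearest to Zdhhc20 (0.99) and Ackr4 (0.99), but Zdhhc20 spanned only 7.06 to 14.9 CPM in case and 8.66 to 12.6 CPM in control. Ogn was nearest to Ndufa1 (0.99), a subunit of respiratory complex I, which had 344, 0 and 518 counts in case, against 281, 490 and 367 in control, and to Knstrn (0.98). Ndufa1, like Ogn, had its lowest count in case 6 and its highest in case 9. The spans of Stk3 (17.0 to 20.4 CPM), Tm9sf2 (84.6 to 101 CPM) and Knstrn (14.8 to 21.1 CPM) over the 6 libraries were also narrow.

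The spread within a group split the family. The biological coefficient of variation, edgeR's estimate of how much a gene varies between libraries of a group beyond counting error, was 0.24 to 0.28 for Dcn, Bgn, Fmod, Lum and Prelp. It was 1.21 for Aspn, 0.96 for Ogn and 0.73 for Chad. Of 5715 genes within 2-fold of its mean level, 99.8% had a lower coefficient than Aspn, as had 99.2% of 5448 genes for Ogn and 94.4% of 3126 genes for Chad. In Dcn the share was 71.7%, in Fmod 88.2%, in Prelp 86.5%, in Lum 54.1% and in Bgn 32.9%. The 3 unsteady members are among the 4 that overlap another protein-coding gene, and Omd, the fourth, had 36 counts in case 6 and at most 2 elsewhere. Cenpp, matched to its row by gene ID, had 29, 33 and 26 counts in case, against 29, 21 and 35 in control, and Acsf2 had 391, 517 and 358 in case, against 369, 386 and 346 in control. The counts of these 2 overlapping genes varied little between libraries. The part of overlap in the spread of the members was not tested.

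**Figure D5:**
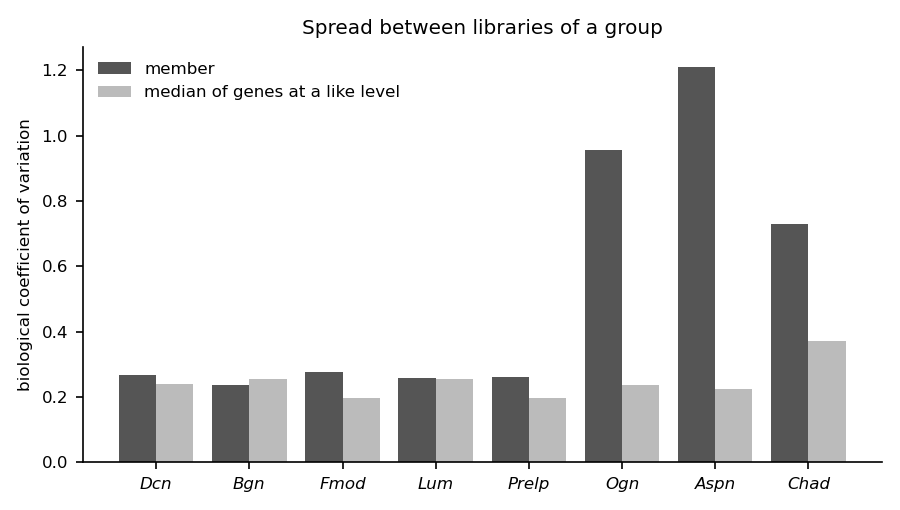
Biological coefficient of variation (edgeR, no unit) of the 8 tested members (dark bars) and the median over genes within 2-fold of the same mean CPM (light bars). Aspn at 1.21 and Ogn at 0.96 stand above medians of 0.23 and 0.24, while Dcn, Bgn, Fmod, Lum and Prelp lie at 0.24 to 0.28.

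Gaps of this size were rare in the table. Of 12027 tested genes with at least 100 counts in some library, 205 (1.70%) had libraries of the same group at least 20-fold apart and 106 (0.881%) at least 100-fold apart, with counts of 0 set to 1 and limits chosen after these values were seen. Aspn, at 264-fold in counts, and Ogn, at 162-fold, belong to the 106. The cause was not tested.

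The collagens whose fibrils the proteoglycans coat were all lower in case by fitted value, and 0 passed the adjusted threshold. The groups lay apart in 0 of the 14, against 8.47% of all tested genes. Their summed level was 138943, 69431 and 63562 CPM in case 5, 6 and 9, and 84138, 110969 and 118597 CPM in control 5, 6 and 10. Case 5 was thus the highest library. The 14 tested fibrillar and fibril-associated collagens had fold changes of -1.07 to -0.14, with -0.28 as the median, where 53.7% of all tested genes were under 0. Col14a1, a fibril-associated collagen that binds decorin, had the smallest unadjusted p (0.0424 in edgeR), at 11.6, 3.66 and 7.99 CPM in case and 11.6, 15.0 and 22.2 CPM in control. Case 5 and control 5 were level with each other, and the log2 fold change was -1.07 (SE 0.44). Col5a3, a chain of fibril-nucleating type V collagen, averaged 96.5 ± 36.6 CPM in the case and 149 ± 39.4 CPM in the control libraries, and Col3a1, of type III collagen, averaged 6028 ± 1725 CPM in the case and 8503 ± 1886 CPM in the control libraries. The median was -0.60 without case 5, -0.16 without case 9 and -0.14 without control 10, and 11 to 14 of the 14 genes were negative with 1 library left out. Cell type markers did not share a side. Of 9 tested osteoblast and osteocyte markers, 6 were above 0 and 3 below it, and their median was 0.016. Leukocyte markers were above 0 in 8 of 10 tested genes. At an unadjusted p under 0.05 in edgeR 2 of the 10 were higher in case, where 1.88% of all tested genes were. In 1 of the 10 case was higher without overlap, against 4.05% of all tested genes. The fibroblast and endothelium markers, by contrast, lay mostly on the side of the collagens. Of the fibroblast and ligament markers 9 of 11 tested ones had a fold change under 0. In 3 of the 11 case was lower without overlap, against 4.42% of all tested genes. Of the endothelium markers 6 of 6 had a fold change under 0. At an unadjusted p under 0.05 in edgeR 2 of the 6 were lower in case, where 2.27% of all tested genes were. Their summed levels were 407, 317 and 294 CPM in case, against 378, 393 and 448 CPM in control, and neither Pecam1 nor Cdh5 was at 0 in any library. The part of these cells in the collagen and proteoglycan values was not tested.

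Enzymes that build the sugar chains showed no common side. Of 27 tested genes for the linker and for chondroitin or dermatan sulfate chains, 13 had a negative and 14 a positive fold change, with a median of 0.00043, and 0 passed the adjusted threshold. Papss2, which makes the sulfate donor, averaged 28.6 ± 2.54 CPM in the case and 35.1 ± 3.91 CPM in the control libraries with separate groups. Case was thus lower without overlap in 1 of the 27, against 4.42% of all tested genes. Chst12, a chondroitin sulfotransferase, averaged 192 ± 41.5 CPM in case libraries and 147 ± 23.7 CPM in control libraries. Chsy3, a chondroitin synthase, averaged 4.65 ± 1.57 CPM in case libraries and 6.54 ± 0.795 CPM in control libraries. Of 7 tested keratan sulfate genes, 5 were negative, with a median of -0.13. Their sulfotransferase Chst2 was at 38.7, 30.3 and 23.8 CPM in case and 41.4, 40.9 and 40.9 CPM in control, without overlap. The galactosyltransferase B4galt1 was also apart, with means of 38.9 ± 3.79 CPM in case libraries and 45.2 ± 1.62 CPM in control libraries, while Chst1, another sulfotransferase, averaged 11.8 ± 2.03 CPM in case libraries and 9.77 ± 0.549 CPM in control libraries. In 2 of the 7 keratan sulfate genes case was thus lower without overlap, against the same 4.42%. None of the tested chain enzymes had an unadjusted p under 0.05 in edgeR.

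Proteinases reported to cleave the proteoglycans or their binding partners were negative in 12 of 12 tested genes, with a median of -0.40, and 0 passed the adjusted threshold. At an unadjusted p under 0.05, 3 of 12 were lower in case, where 2.27% of all tested genes were. Mmp12, the macrophage elastase, had 27, 24 and 26 counts in case, against 63, 224 and 66 in control, a log2 fold change of -2.30 (SE 0.51). Its adjusted p was 0.999 in edgeR and 0.0232 in DESeq2, the lowest of 17 alternatives, which reached up to 0.999996. DESeq2 called 21 genes (0.131%) and 0 members. Adamts1, an aggrecan-cleaving proteinase, had a log2 fold change of -1.20 (SE 0.34), and Mmp3, or stromelysin 1, which degrades decorin, one of -2.43 (SE 0.79). Mmp3 rested on 11, 16 and 23 counts in case, against 14, 163 and 75 in control. The summed leukocyte markers were at 7740, 13784 and 18342 CPM in case and 6257, 17080 and 14372 CPM in control, and of 10 tested ones 8 had a positive fold change. Ptprc was at 0 in no library, and the part of leukocytes in these values was not tested.

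Growth factors, receptors and matrix proteins that members bind gave 13 negative and 5 positive fold changes in 18 tested genes. Their median was -0.14, and 0 passed the adjusted threshold. Eln, which encodes elastin, averaged 51.8 ± 14.1 CPM in case libraries and 79.2 ± 21.7 CPM in control libraries. Bmp2, a bone morphogenetic protein that asporin binds, averaged 21.7 ± 5.93 CPM in case libraries and 28.9 ± 7.39 CPM in control libraries. Tgfb2, a transforming growth factor beta, averaged 92.7 ± 5.08 CPM in case libraries and 77.6 ± 16.7 CPM in control libraries. None of these 18 genes had an unadjusted p under 0.05 in edgeR. Without control 5, 8 of the 18 were negative, and the median was 0.028.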

How the data were processed

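The authors deposited whole-number counts per gene symbol for 6 single-end libraries made from total RNA with the Ion Total RNA-Seq Kit, per the labels' protocols. How reads were aligned and counted, with which build and strand setting, is not given in the sources used here. Columns were matched to libraries by title. Genes were filtered with filterByExpr, scaled by TMM and compared as case minus control by quasi-likelihood F-tests (edgeR 4.0.16, R 4.3.3), with the group alone in the design and Benjamini-Hochberg adjustment over 16066 genes (threshold 0.05). log2 CPM used a prior count of 2. The test was first checked on simulated counts.

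Members, lists and rules were chosen with earlier results of these data known. Named were all members, up to 3 genes of each non-marker list by smallest p, and the 2 genes most correlated with each member above 5 CPM. Of 171 list entries, 170 were in the table, 2 of them (Ecm2 and Podn) by gene ID.

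Alternatives were DESeq2 1.42.0, limma-voom (limma 3.58.1), 3 scalings, 2 filters, robust moderation, each library left out, both libraries numbered 5 left out or as a covariate, and the title number as a block. Promoters are from RefSeq (GRCr8).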

Additional observations from a re-analysis of the deposited data

How the results depend on the processing

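edgeR called 0 genes in the full fit, 0 to 2 with each library left out in turn (2 without control 5), and DESeq2 called 21. The members called were 0 under every alternative run. Members with an unadjusted p under 0.05 were 0 in the full fit, 0 to 1 with each library left out (Dcn without control 5, where 7.32% of all tested genes passed), 3 without case 5 and control 5 (14.1%), and 2 (Aspn and Chad) with the title number as a replicate block (4.06%). Dcn, Chad and the Bgn to Dcn ratio kept their direction under all alternatives computed for them, but not their size. Dcn lay between -0.84 and -0.23, and Chad between -2.05 and -0.095.

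With the replicate block 4 of 8 members were negative, with a median of -0.0029, against 6 of 8 and -0.22 in the full fit. Bgn was at 0.013 and Fmod at 0.16 with the block, and the Lum to Fmod log2 ratio differed by -0.18. In the same fit 9 of the 14 collagens were negative, with a median of -0.029. Aspn was at 1.79 with the replicate block, its highest value over the alternatives. It was at -0.50 in limma-voom, at -0.52 with number 5 as a covariate, and at -1.51 without both libraries numbered 5. With each library left out Aspn lay between -2.29 and 1.43. Ogn was at -2.18 in limma-voom and at -2.33 with the replicate block. Without both libraries numbered 5 Prelp was at -0.024. With each library left out in turn, Lum ran from -0.39 to 0.087, Ogn from -1.57 to 0.43 and the Lum to Fmod difference from -0.19 to 0.23, and 8 to 13 of the 18 ligand and receptor genes were negative. Lum turned positive without control 10, Ogn without case 5, case 6 or control 10, and Aspn negative without case 5. Numbers 5 and 6 occur in both groups, and deviations from the group means correlated at 0.38 and 0.14 over 16066 genes, but the labels do not say that a number marks an animal, so the block is only an alternative.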

Other observations

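The remaining genes of the family gave 6 tested genes of 8, of which 3 had a negative fold change, and 0 passed the adjusted threshold. Podn (podocan), matched by gene ID, had 250, 232 and 132 counts in case and 269, 261 and 332 counts in control, and its CPM also lay apart, with means of 15.5 ± 4.44 in case and 24.8 ± 5.02 in control (SD, n = 3). Its log2 fold change was -0.68 (SE 0.26), with an unadjusted p of 0.0342 and an adjusted p of 0.999 in edgeR. Optc (opticin), known from the vitreous of the eye, lay apart on the other side, with 18, 21 and 23 counts in case and 14, 11 and 14 counts in control. Its log2 fold change was 0.50 (SE 0.39, unadjusted p 0.236 in edgeR). Thus 1 of the 6 tested genes lay apart with case lower and 1 with case higher, against 4.42% and 4.05% of all tested genes. Tsku (tsukushi), a secreted modulator of signalling, averaged 70.2 ± 4.36 CPM in case libraries and 92.4 ± 22.4 CPM in control libraries (SD, n = 3). Podnl1 differed least, at 169 to 219 CPM in case and 166 to 200.1 CPM in control, with a log2 fold change of 0.011 (SE 0.16). Epyc (epiphycan), a cartilage member next to Kera, had 4, 12 and 8 counts in case and 2, 7 and 70 in control. Ecm2, the fourth gene within the span of Cenpp, had at most 2 counts in case and at most 4 in control.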
